A study of Mus musculus with 8 samples.

Results

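Interferon-stimulated genes are the transcripts that a cell raises when it senses interferon, and they include the guanylate-binding proteins and the immunity-related GTPases. A set of 39 such genes was followed here across mouse Th1 cells. They were taken from a list of gene symbols, out of 33863 genes that could be identified in the deposited tables. The list was chosen with earlier results of these data known, so it was not a blind choice. The set holds 4 sensors of viral nucleic acid, 5 transcription factors, 18 antiviral effectors, 1 feedback protease, 5 guanylate-binding proteins, 5 immunity-related GTPases and 1 subunit of the peptide transporter.

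Type I interferons and interferon gamma bind separate receptors on the cell surface. Both use Janus kinases to activate STAT proteins. STAT2 and IRF9 are parts of the complex that binds the interferon-stimulated response element, and the gamma-activated sequence is the element through which interferon gamma acts. Th1 cells are the T helper cells that secrete interferon gamma, so they both make and receive that signal.

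RNA sequencing covered 8 libraries of C57BL/6 CD4 T cells grown into Th1 cells in culture, with 2 libraries in each of 4 groups. All cells were stimulated on plates with antibodies to CD3 and CD28, held by an antibody to hamster IgG, in 2 ng/ml IL-12 and 5 µg/ml of an antibody to IL-4. In the first experiment the cells had been transduced with a hairpin against Pcbp1 or with a scrambled hairpin, and total RNA depleted of ribosomal RNA was sequenced. PCBP1 binds RNA and passes iron to ferritin. In the second experiment the cells received the iron chelator CPX (ciclopirox olamine) or the solvent DMSO, and polyA RNA was sequenced. Because the RNA was selected differently, levels are compared within an experiment only. The dose and duration of CPX, the hairpin's sequence and the time after transduction are not stated in the labels. Nor do they state that replicates are separate cultures or animals, so p-values measure only the spread between these libraries, which may be technical.

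The 4 hairpin libraries held 14174293 to 15518303 reads. The 4 libraries of the CPX experiment held 19193784 to 19662145 rescaled units, each standing for 1.98 reads. Levels are given as RPM, a gene's share of its library's total times 1e+06. The targeted gene, Pcbp1, was at 44.0 and 51.7 RPM with the scrambled hairpin and at 15.1 and 16.1 RPM with the Pcbp1 hairpin. Pcbp1 also fell with CPX, from 506 and 538 RPM to 238 and 199 RPM (log2 -1.26, SE 0.20, adjusted p = 0.00612 by limma). All 6 T cell and Th1 markers, Cd3e, Cd3d, Cd4, Cd28, Tbx21 and Ifng, were above 1 RPM in every library. Markers of other cells moved with CPX. The summed level of 7 macrophage and monocyte markers was 1.32 to 3.57 RPM in the other 6 libraries and 23.6 and 29.2 RPM with CPX, while the defining marker Lyz2 was at 0 in all 8. For 6 dendritic markers the sum was 3.51 to 7.48 RPM elsewhere and 26.4 and 27.2 RPM with CPX. Neutrophil markers summed to at most 0.42 RPM elsewhere and to 7.24 and 5.51 RPM with CPX, with S100a8 at 0 throughout. These sums rested on part of each list. In both CPX libraries 3 of 7 macrophage and monocyte, 3 of 6 dendritic and 1 of 4 neutrophil markers reached 1 RPM. In both DMSO libraries 1, 2 and 0 did. B cell markers summed to at most 1.72 RPM. The NK list was carried by Nkg7, which T cells also express. It summed to 58.2 and 77.5 RPM with the scrambled hairpin, 291 and 401 RPM with the Pcbp1 hairpin, 232 and 461 RPM with DMSO, and 91.7 and 246 RPM with CPX. Cd8a and Cd8b1 together stood at 90.5 and 92.0 RPM in replicate 1 of the scrambled and Pcbp1 hairpin, against 11.9 and 11.6 RPM in replicate 2. The part of these cells in any result below was not tested. In bulk RNA, fewer cells of a type and less RNA per cell cannot be told apart.

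Promoter sequence is shown for 6 members on which the results turn. Gbp2 and Gbp5 lie near each other on chromosome 3, and with CPX one lay above and the other below both DMSO libraries. Igtp and Ifi47 are GTPases that fell with the Pcbp1 hairpin. Samhd1 fell with the hairpin and rose with CPX, and Isg15 rose with CPX. Each line holds the 250 bases before the annotated start, 5′ to 3′ on the gene's strand, from RefSeq in build GRCm38.p6. The authors used build mm9, and no value was joined to these windows by coordinate. Capitals mark matches to a response element core, GAAANNGAA or its other strand TTCNNTTTC, and to a gamma-activated sequence, TTCNNNGAA, which reads the same on both strands.
Gbp2: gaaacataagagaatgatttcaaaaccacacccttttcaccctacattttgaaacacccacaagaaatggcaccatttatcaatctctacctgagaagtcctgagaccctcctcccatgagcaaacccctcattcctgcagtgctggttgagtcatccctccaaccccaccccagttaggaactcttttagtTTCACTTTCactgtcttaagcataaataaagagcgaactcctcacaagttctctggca
Gbp5: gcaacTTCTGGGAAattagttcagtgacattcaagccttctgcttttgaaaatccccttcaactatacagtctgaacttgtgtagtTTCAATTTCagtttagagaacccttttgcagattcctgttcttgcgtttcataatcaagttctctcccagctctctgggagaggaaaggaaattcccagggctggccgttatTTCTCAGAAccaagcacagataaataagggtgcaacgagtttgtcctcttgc
Igtp: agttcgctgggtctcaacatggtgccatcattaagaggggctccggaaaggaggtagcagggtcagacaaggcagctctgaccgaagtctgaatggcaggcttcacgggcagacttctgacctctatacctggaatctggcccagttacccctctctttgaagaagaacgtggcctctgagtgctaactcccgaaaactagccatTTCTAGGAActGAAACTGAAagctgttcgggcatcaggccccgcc
Ifi47: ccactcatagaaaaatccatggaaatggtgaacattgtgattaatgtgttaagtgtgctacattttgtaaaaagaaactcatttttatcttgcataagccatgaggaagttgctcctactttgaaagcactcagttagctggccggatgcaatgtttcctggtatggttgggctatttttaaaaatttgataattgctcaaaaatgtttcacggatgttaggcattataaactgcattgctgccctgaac
Samhd1: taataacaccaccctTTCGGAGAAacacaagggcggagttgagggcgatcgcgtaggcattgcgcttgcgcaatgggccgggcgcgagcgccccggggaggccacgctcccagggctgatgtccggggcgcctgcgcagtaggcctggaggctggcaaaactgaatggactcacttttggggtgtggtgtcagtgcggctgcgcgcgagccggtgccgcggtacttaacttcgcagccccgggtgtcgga
Isg15: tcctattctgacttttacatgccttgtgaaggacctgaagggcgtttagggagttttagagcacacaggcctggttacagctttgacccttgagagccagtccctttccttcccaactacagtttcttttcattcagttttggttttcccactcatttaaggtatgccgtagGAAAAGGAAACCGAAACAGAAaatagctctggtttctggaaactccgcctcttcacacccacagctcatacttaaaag
The windows lie at chr3:142620413-142620662 on the plus strand for Gbp2, chr3:142496684-142496933 plus for Gbp5 and chr11:58199306-58199555 plus for Igtp. The other windows are chr11:49076337-49076586 plus for Ifi47, chr2:157135097-157135346 minus for Samhd1 and chr4:156200819-156201068 minus for Isg15. Gbp2 held 1 response element core, which began 58 bases before the start. Gbp5 held a core at 164 bases and gamma-activated sequences at 245 and 52 bases before the start. In Igtp the core began at 34 and the gamma-activated sequence at 45 bases. Isg15 held 3 overlapping cores at 78, 72 and 66 bases. Samhd1 held only a gamma-activated sequence, at 235 bases, and the Ifi47 window held neither set of letters. A match is a description of the letters and not evidence that a factor binds there.

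RefSeq windows running from 250 bases before to 50 after a start were found for 30 of the 39 members. The response element core was present for 18 of the 30 (60%), against 9.76% of 27025 genes with a window. A gamma-activated sequence was present for 11 of the 30 (36.7%), against 9.55% of genes. The 2 motifs can overlap within a window. Both occurred in a window of 6 members, Oas1a, Bst2, Gbp5, Gbp7, Igtp and Irgm2, and neither occurred for 7. Of the 14 members that fell with the Pcbp1 hairpin, 11 had a window, of which 6 held a core and 5 a gamma-activated sequence. Of the 6 that rose with CPX, 5 had a window, of which 2 held a core and 2 a gamma-activated sequence. All 5 that fell with CPX had a window, of which 2 held a core and 3 a gamma-activated sequence.

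The Pcbp1 hairpin was compared with the scrambled hairpin to ask which of these genes change when Pcbp1 is reduced. GTPases of both families were lower with the Pcbp1 hairpin. Of the 5 guanylate-binding proteins 4 fell, as did 4 of the 5 immunity-related GTPases, by 0.57 to 1.41 on the log2 scale. The remaining falls were in Zbp1, Irf7, Samhd1, Ifit2, Trim30a and Ifi35. Only Stat2 rose. In all, 32 members passed the filter of 1 RPM in 2 or more of the 4 libraries. Of these, 14 fell (43.8%), 1 rose (3.12%) and 17 did not pass the test, which was edgeR's quasi-likelihood test at a Benjamini-Hochberg adjusted p under 0.05. Among all 11561 genes tested 56.0% were called, 26.6% fell and 29.4% rose. The libraries of the hairpin groups were separated for 20 members (62.5%), 4 higher and 16 lower, against 78.5% of all genes. Iigp1, among the 16 lower and the 14 that fell, passed the filter only through the scrambled libraries, which fixed its direction. The members' median log2 fold change was -0.33, against 0.00 over all genes.

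Guanylate-binding proteins assemble on the membranes of intracellular pathogens and help to break them open. Gbp2 was at 128 and 127 RPM with the scrambled hairpin and at 56.3 and 47.1 RPM with the Pcbp1 hairpin. Both knockdown libraries were below both controls, a 2.66-fold difference (log2 -1.41, SE 0.09, adjusted p = 2.26e-05 by edgeR's quasi-likelihood test). It was also the most abundant member per transcript length, with a mean of 50.7 RPM per kilobase in the scrambled libraries, followed by Gbp3 at 26.0 on the same scale. Gbp3 went from 68.2 and 71.3 RPM to 51.9 and 49.0 RPM (log2 -0.57, SE 0.07, adjusted p = 4.74e-04). Gbp7 was at 27.1 and 34.0 RPM in controls and at 21.8 RPM in each knockdown library (log2 -0.59, SE 0.13, adjusted p = 0.00623). The scarce Gbp6 went from 2.96 and 2.65 RPM to 1.22 and 1.82 RPM (log2 -0.995, SE 0.29, adjusted p = 0.0206). For all of these genes the groups did not overlap. Gbp5, which promotes inflammasome assembly, was the exception in the family. Its levels were 9.67 and 10.3 RPM in controls and 10.1 and 9.23 RPM with the Pcbp1 hairpin, and the groups overlapped (log2 -0.16, SE 0.14, adjusted p = 0.382). Gbp6 did not pass once scrambled replicate 1 (adjusted p = 0.0707) or Pcbp1 hairpin replicate 1 (0.125) was left out, nor with DESeq2 (0.123).

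The immunity-related GTPases attack the vacuoles in which parasites and bacteria live. Igtp went from 32.5 and 35.5 RPM to 20.4 and 17.7 RPM (log2 -0.94, SE 0.11, adjusted p = 3.14e-04). Ifi47 was at 32.0 and 36.3 RPM in controls and at 21.0 and 22.7 RPM with the Pcbp1 hairpin (log2 -0.75, SE 0.11, adjusted p = 9.13e-04). Irgm1, a regulatory member of the family, went from 13.6 and 14.5 RPM to 9.67 and 9.51 RPM (log2 -0.66, SE 0.13, adjusted p = 0.00354). In each case the knockdown libraries lay close together and below both controls. Iigp1 was scarce, at 2.05 and 1.61 RPM in controls and 0.644 and 0.839 RPM with the Pcbp1 hairpin (log2 -1.40, SE 0.34, adjusted p = 0.00987), and it did not pass once Pcbp1 hairpin replicate 1 was left out (adjusted p = 0.0561) or with DESeq2 (0.0877). Irgm2 overlapped between groups, at 1.55 and 1.82 RPM against 1.48 and 2.31 RPM. Both families hold near copies of one another, and the handling of shared reads is not stated in the labels, so the split among close relatives is uncertain.

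**Figure D1:**
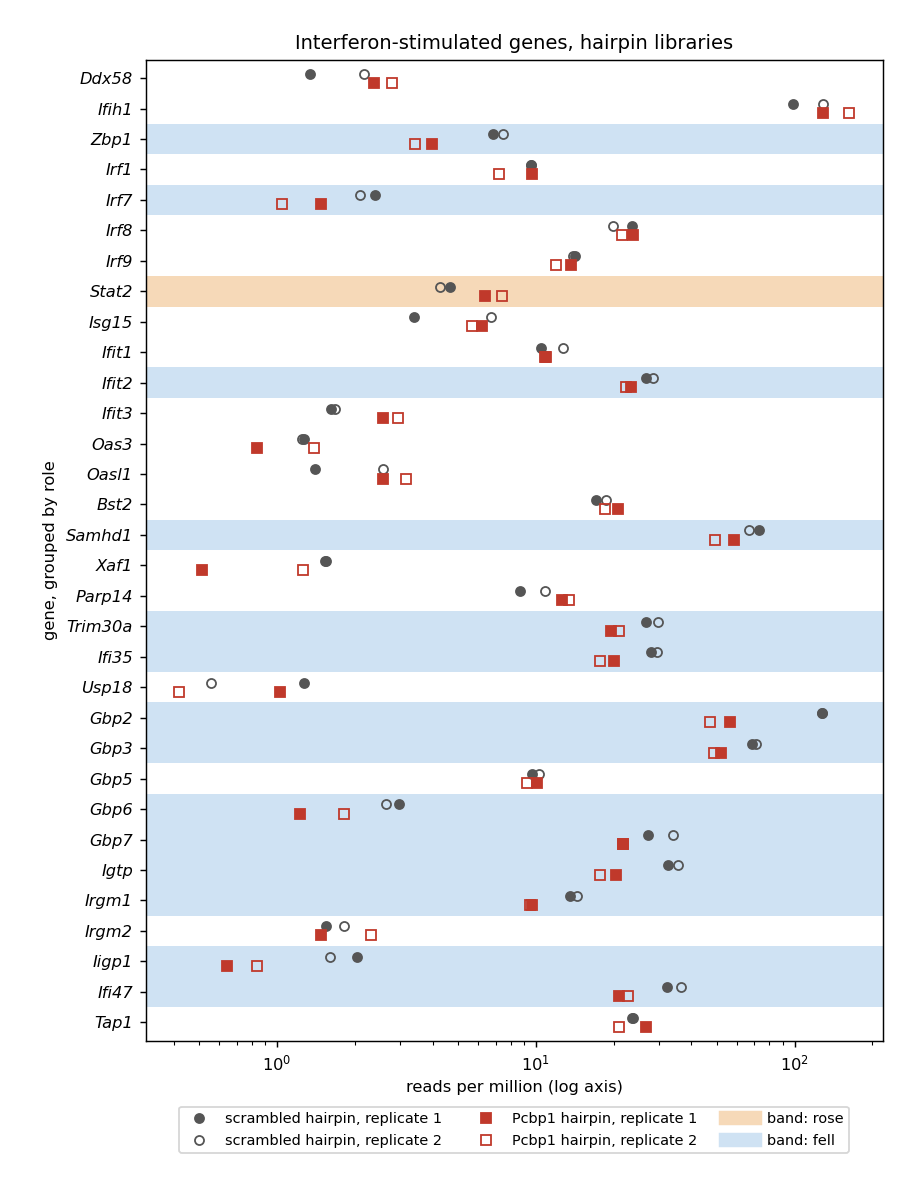
Level in each hairpin library of the 32 members that passed the filter, in RPM on a log axis. Grey circles are scrambled libraries, red squares Pcbp1 hairpin libraries, and bands mark genes called as fallen or risen. The squares lie left of the circles in 4 of 5 guanylate-binding proteins and 4 of 5 immunity-related GTPases.

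Among the sensors only Zbp1, which detects double-stranded nucleic acid in the Z form and can trigger cell death, was called. It stood at 6.84 and 7.47 RPM in controls and at 4.0 and 3.43 RPM with the Pcbp1 hairpin (log2 -1.05, SE 0.19, adjusted p = 0.00235). The RNA sensor Ifih1 was at 98.6 and 129 RPM in controls and at 129 and 163 RPM with the Pcbp1 hairpin, and did not pass (log2 0.25, SE 0.15, adjusted p = 0.191). It passed without scrambled replicate 2 (adjusted p = 0.0173) or Pcbp1 hairpin replicate 1 (0.0261). Ddx58 was at 1.34 to 2.80 RPM over the 4 libraries and did not pass.

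The transcription factors did not move as a group. Irf7, the main amplifier of type I interferon production, was scarce and went from 2.40 and 2.09 RPM to 1.48 and 1.05 RPM (log2 -0.92, SE 0.30, adjusted p = 0.0307). It did not pass with scrambled replicate 1 (adjusted p = 0.114), scrambled replicate 2 (0.0527) or Pcbp1 hairpin replicate 2 (0.145) left out, nor with DESeq2 (0.192). Stat2 went from 4.66 and 4.26 RPM to 6.38 and 7.41 RPM (log2 0.52, SE 0.19, adjusted p = 0.0473). Its call was lost in 11 of 13 alternatives, among them each of the 4 that left out a library (adjusted p 0.0569 to 0.256). Irf1, Irf8 and Irf9 did not pass, with log2 fold changes of -0.29, -0.04 and -0.24. Irf1 was at 9.59 and 9.64 RPM in controls and 9.67 and 7.20 RPM with the Pcbp1 hairpin, so the groups overlapped.

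Of the 18 antiviral effectors 12 were tested, 4 fell and none rose, where 26.6% of all genes fell and 29.4% rose. The count is small and is to be read against those shares. Samhd1, which destroys the nucleotides that viruses need for DNA synthesis, went from 72.8 and 66.6 RPM to 58.4 and 49.2 RPM (log2 -0.48, SE 0.10, adjusted p = 0.00391). Ifi35 was at 28.0 and 29.4 RPM in controls and 20.1 and 17.7 RPM with the Pcbp1 hairpin (log2 -0.71, SE 0.11, adjusted p = 0.00105). Trim30a, a ubiquitin ligase family member, went from 26.7 and 29.7 RPM to 19.5 and 21.0 RPM (log2 -0.58, SE 0.11, adjusted p = 0.00306). These 3 genes were separated between groups in every library. Ifit2, which binds viral RNA, moved least among the called genes, from 26.8 and 28.3 RPM to 23.5 and 22.4 RPM (log2 -0.37, SE 0.10, adjusted p = 0.0145), and lost its call without scrambled replicate 2 (adjusted p = 0.0738) or with DESeq2 (0.0547). Ifit1, Ifit3, Isg15, Oas3, Oasl1, Bst2, Xaf1 and Parp14 did not pass, with log2 fold changes from -0.92 to 0.63. Isg15 overlapped between groups, at 3.39 and 6.70 RPM in controls and 6.19 and 5.66 RPM with the Pcbp1 hairpin, and so did Oasl1, at 1.41 and 2.58 RPM against 2.58 and 3.15 RPM. Both knockdown libraries were above both controls for Parp14 (8.68 and 10.9 against 12.7 and 13.4 RPM) and Ifit3 (1.62 and 1.68 against 2.58 and 2.94 RPM). The feedback protease Usp18 and the transporter subunit Tap1 did not pass either, at -0.42 and -0.10. Dhx58, Mx1, Oas1a, Oas2, Oasl2, Rsad2 and Rtp4 stayed under the filter, all at or below 1.22 RPM in the 4 libraries.

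A limma fit with all 8 libraries ended the calls of 13 of the 14 members that fell, all but Zbp1, and that of Stat2. In that fit 2758 of 11561 genes were called, against 6475. That fit takes its residual spread from the libraries of both experiments. With gene length and GC content taken out of a limma fit of the hairpin libraries, the calls of Ifit2 (log2 -0.08, adjusted p = 0.546), Trim30a (-0.21, 0.145), Gbp6 (-0.54, 0.0849) and Iigp1 (-0.48, 0.132) were lost. That of Stat2 was lost as well. In the same fit Gbp3 and Ifi47 kept theirs with smaller falls (log2 -0.32 and -0.31). Calls were gained there by Ifit3 (log2 0.83, adjusted p = 0.0122), Bst2 (0.36, 0.0291) and Irf9 (-0.36, 0.0488). Ifit3 also passed in limma without that step (adjusted p = 0.0396).

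CPX was compared with DMSO to ask which of the genes change when iron is chelated. Effectors and sensors were found on both sides, and both GTPases called by limma fell. In the authors' deposited table Gbp2, Iigp1 and Gbp6 were called as risen. Of the 35 members tested 6 rose, namely Rsad2, Irf1, Samhd1, Oasl1, Isg15 and Zbp1, by 1.44 to 2.07 on the log2 scale. Another 5 fell, namely Gbp5, Ifi47, Ifi35, Ifit2 and Ifih1, by 1.04 to 2.88. The other 24 did not pass limma's test on log2(RPM + 0.5), a scale that understates the change of scarce genes. By limma the shares that rose (17.1%) and fell (14.3%) were below those of all 11478 genes tested. Of these genes 44.7% were called, 20.0% rose and 24.8% fell. For the risen share this was reversed with DESeq2 on reads recovered from the rescaled values (12 of 35 members, 2928 of 11473 genes). A block for replicate number (12 of 35, 2584 of 11478) and the authors' deposited values (14 of 39, 22.1% of 15791) reversed it too. With TMM scaling the risen share stayed below (7 of 35, 2579 of 11478). The fallen share was below that of all genes in each of these settings. The CPX and DMSO libraries were separated for 22 members (62.9%), 14 higher and 8 lower, against 76.3% of genes. Rsad2, Mx1, Oasl2 and Iigp1, all among the 14 higher, passed the filter only through the CPX libraries, which fixed their direction. The upper end of the rises, 2.07, is that of Rsad2. The members' median log2 fold change was 0.50 and that of all genes -0.12. With TMM scaling the median of all genes was 0.00 and that of the members 0.62. Relative to all genes the members' median was 0.62 under both scalings, 0.43 with quantile normalization and 0.31 over the 26 members above a filter of 5 RPM. It was 0.14 without CPX replicate 1 and 0.91 without CPX replicate 2. Leaving out 1 library gave 1 risen and 2 fallen members without DMSO replicate 1, 4 and 2 without DMSO replicate 2, 4 and 5 without CPX replicate 1, and 10 and 3 without CPX replicate 2. The CPX libraries were also those with the higher macrophage, dendritic and neutrophil marker sums.

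Among the transcription factors Irf1, an early target of interferon gamma, was at 10.8 and 17.1 RPM in the DMSO libraries and at 54.0 and 46.7 RPM with CPX (log2 1.85, SE 0.32, adjusted p = 0.00848 by limma). Both CPX libraries were well above both DMSO libraries. The call was lost without DMSO replicate 1 (adjusted p = 0.075). Irf7, Irf8, Irf9 and Stat2 had log2 fold changes of 0.65 to 1.28 and did not pass by limma. Irf7 overlapped between groups, at 6.41 and 2.61 RPM with DMSO and 13.1 and 5.67 RPM with CPX. The value of Irf9 rested on 1 library, at -0.12 without CPX replicate 1 and 1.41 without CPX replicate 2 (adjusted p = 0.0266). Irf8 passed with DESeq2 on recovered reads (adjusted p = 0.00768). Stat2 was at 12.5 and 15.7 RPM with DMSO and 25.7 and 23.6 RPM with CPX (log2 0.80, SE 0.29, adjusted p = 0.0718), and passed with TMM scaling (0.0414) and with edgeR on reads recovered from the rescaled values (0.0441).

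Effectors and sensors moved both ways. Isg15, a ubiquitin-like protein that is attached to other proteins, went from 12.0 and 12.5 RPM to 34.4 and 42.6 RPM (log2 1.61, SE 0.28, adjusted p = 0.00816). Samhd1 was at 51.0 and 96.3 RPM in the DMSO libraries and at 267 and 213 RPM with CPX (log2 1.76, SE 0.35, adjusted p = 0.0119). Zbp1 went from 10.8 and 15.1 RPM to 37.4 and 33.6 RPM (log2 1.44, SE 0.30, adjusted p = 0.0140). These genes were higher in both CPX libraries than in either control. Rsad2 (viperin), an enzyme that makes a chain-terminating nucleotide, was scarce with DMSO, at 0.610 and 0.256 RPM, and at 4.17 and 2.65 RPM with CPX (log2 2.07, SE 0.36, adjusted p = 0.00799). Oasl1, a relative of the oligoadenylate synthetases, went from 0.966 and 1.59 RPM to 4.43 and 5.98 RPM (log2 1.69, SE 0.35, adjusted p = 0.0130). Without DMSO replicate 1 the calls of Isg15 (adjusted p = 0.0793), Samhd1 (0.0677), Zbp1 (0.147) and Oasl1 (0.115) were lost. Without DMSO replicate 2 those of Isg15 (0.0677), Zbp1 (0.0644) and Rsad2 (0.0535) were lost. Samhd1 also lost its call without CPX replicate 1 (0.0866), CPX replicate 2 (0.0585) or any filter on low values (0.0576), and Zbp1 without CPX replicate 1 (0.0527).

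In the opposite direction, Ifit2 was at 12.0 and 14.0 RPM in the DMSO libraries and at 3.96 and 4.89 RPM with CPX (log2 -1.46, SE 0.32, adjusted p = 0.0159). Ifi35 went from 35.3 and 29.8 RPM to 15.5 and 8.26 RPM (log2 -1.48, SE 0.38, adjusted p = 0.0264). Ifih1 went from 63.6 and 38.3 RPM to 25.8 and 21.8 RPM and was at the edge of the threshold (log2 -1.04, SE 0.33, adjusted p = 0.0494). The groups of these genes did not overlap. Without DMSO replicate 1 the calls of Ifit2 (adjusted p = 0.106) and Ifi35 (0.169) were lost, and likewise without DMSO replicate 2 (0.145 and 0.111). That of Ifi35 was also lost with quantile normalization (0.0886) and without a filter on low values (0.0755). The call of Ifih1 was lost in 10 of 15 alternatives, among them each of the 4 that left out a library (adjusted p 0.0916 to 0.392). Ifit3 was at 3.81 and 3.84 RPM with DMSO and 2.24 and 2.39 RPM with CPX (log2 -0.62, SE 0.29, adjusted p = 0.134). Parp14, an ADP-ribosyltransferase, went from 29.2 and 26.3 RPM to 16.8 and 7.54 RPM (log2 -1.26, SE 0.43, adjusted p = 0.0602). Neither passed, although in each the CPX libraries were below both controls.

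Of the 10 GTPases, Gbp5 and Ifi47 fell with CPX and none rose by limma's test, where 24.8% of all genes fell and 20.0% rose. Gbp5 went from 14.1 and 37.1 RPM to 2.87 and 2.49 RPM, a 7.38-fold difference (log2 -2.88, SE 0.51, adjusted p = 0.00859). Ifi47 fell from 30.2 and 36.8 RPM to 7.97 and 4.21 RPM, a 5.36-fold difference (log2 -2.42, SE 0.39, adjusted p = 0.00663), and kept its call in all 15 alternatives. Gbp5 lost its call without CPX replicate 1 (adjusted p = 0.0620) or CPX replicate 2 (0.0643), and its log2 fold change ranged from -3.57 without DMSO replicate 1 to -2.20 without DMSO replicate 2. Gbp2, by contrast, was at 64.4 and 167 RPM in the DMSO libraries and at 203 and 862 RPM with CPX. Both CPX libraries were higher, but the libraries of each group differed more than 2-fold, and the change did not pass (log2 2.00, SE 0.77, adjusted p = 0.0821). Gbp2 passed with edgeR (adjusted p = 0.0470) and DESeq2 (6.62e-04) on recovered reads and in the limma fit of all 8 libraries (0.0321). In both groups replicate 2 was the higher, and with replicate number as a block in limma Gbp2 passed too (2.09e-04). What a replicate number marks is not stated in the labels. The log2 fold change of Gbp2 was 2.69 without DMSO replicate 2, 0.96 without CPX replicate 2 and 3.05 without CPX replicate 1. Iigp1 went from 0.915 and 0.307 RPM to 5.78 and 1.2 RPM and did not pass by limma (log2 1.61, SE 0.67, adjusted p = 0.10). It passed with DESeq2 on recovered reads (log2 2.64, adjusted p = 0.0117), and its log2 fold change by limma was 2.56 without CPX replicate 2 and 0.67 without CPX replicate 1. Igtp went from 30.3 and 54.9 RPM to 23.7 and 20.9 RPM (log2 -0.86, SE 0.36, adjusted p = 0.0999). Gbp3, Gbp6, Gbp7 and Irgm1 overlapped between groups. Their values were 30.8 and 80.2 against 26.8 and 44.0 RPM for Gbp3, and 13.8 and 23.5 against 20.1 and 17.6 RPM for Gbp7. Gbp6 was at 9.31 and 6.34 RPM against 37.0 and 8.78 RPM, and Irgm1 at 15.9 and 9.21 RPM against 22.2 and 3.95 RPM. With DESeq2 on recovered reads Gbp6 passed (log2 1.73, adjusted p = 0.0198), while by limma its log2 fold change was 0.18 without CPX replicate 1.

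**Figure D2:**
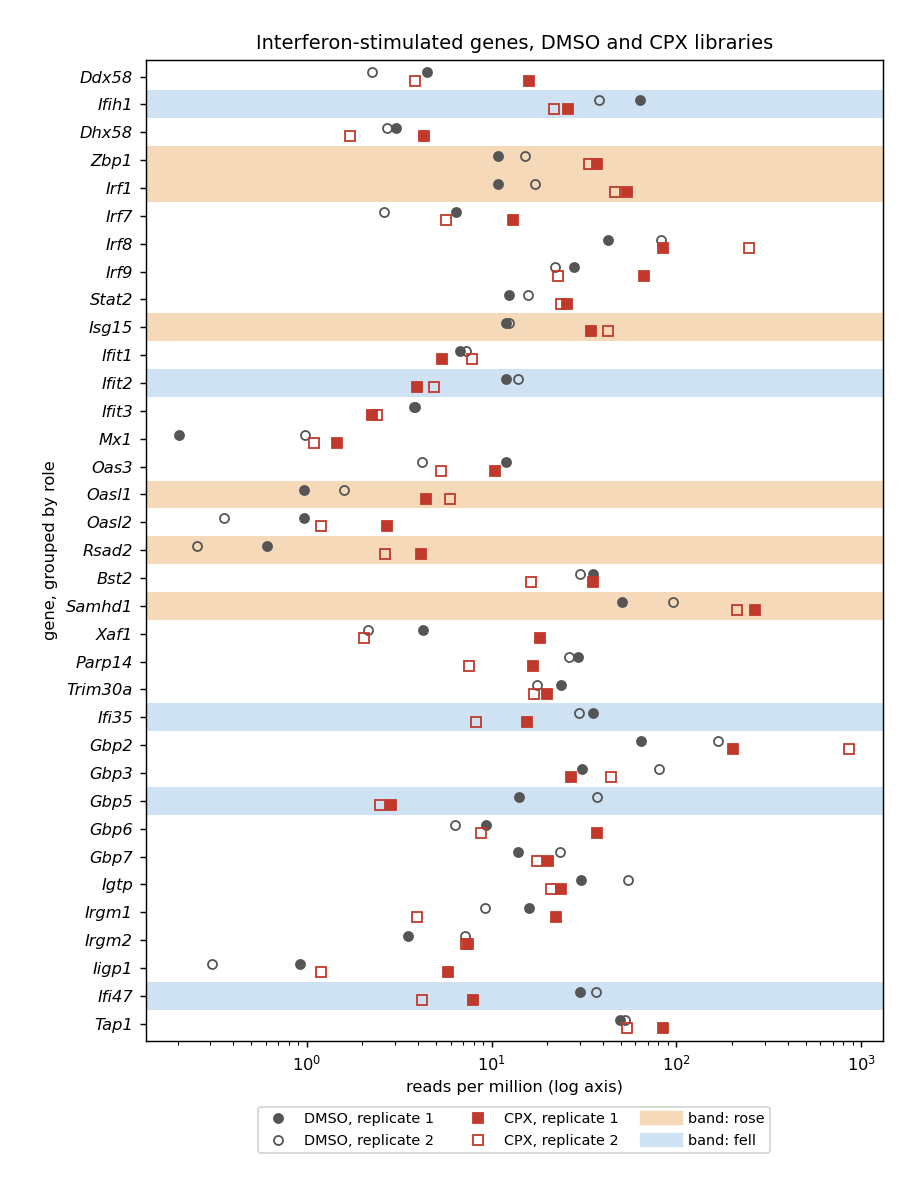
Level in each DMSO and CPX library of the 35 members that passed the filter, in RPM on a log axis. Grey circles are DMSO libraries, red squares CPX libraries, filled symbols replicate 1 and open symbols replicate 2, and bands mark called genes. The symbols of a group lie further apart than in the hairpin experiment, and Gbp2 reaches 862 RPM in CPX replicate 2 only.

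The remaining members gave no call with CPX by limma. Irf8 was at 42.7 and 82.3 RPM in the DMSO libraries and at 84.7 and 246 RPM with CPX, and Tap1 at 49.2 and 53.0 RPM against 84.2 and 54.3 RPM. Trim30a was at 23.9 and 17.7 RPM against 19.9 and 17.0 RPM. Ddx58, at 4.48 and 2.25 RPM against 15.8 and 3.85 RPM, passed with DESeq2 on recovered reads (adjusted p = 0.0388). Bst2, Ifit1, Oas3, Trim30a, Xaf1, Ddx58 and Dhx58 overlapped between groups. Oas1a, Oas2, Rtp4 and Usp18 were under the filter. Irgm2, Mx1 and Oasl2 were higher in both CPX libraries than in either control but did not pass (adjusted p = 0.354, 0.168 and 0.102). Oas2 and Rtp4 reached 3.54 and 4.74 RPM in CPX replicate 1 and at most 0.208 RPM in CPX replicate 2. In the authors' deposited table, fitted with DESeq2 per its header, 14 of the 39 members rose and 6 fell with CPX, where 41.3% of 15791 genes were called, 22.1% rose and 19.2% fell. With the Pcbp1 hairpin the authors' deposited table called 0 of 31 members as risen and 10 as fallen, where 43.6% of 11443 genes were called, 23.5% rose and 20.1% fell.

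Setting the comparisons side by side asks whether iron chelation and the Pcbp1 hairpin moved these genes alike. The experiments have separate controls and used different RNA selection. A difference between the effects therefore cannot be told apart from one of RNA selection or experiment. Ifit2, Ifi35 and Ifi47 fell in both. Zbp1 and Samhd1 fell with the Pcbp1 hairpin and rose with CPX. Among all genes 26.6% fell with the hairpin, and 24.8% fell and 20.0% rose with CPX. The share of all genes called in both experiments was not counted, so these joint calls are not a result about the members as a set. The difference between the effects, knockdown minus CPX, was tested by limma over all 8 libraries for 31 members. Of these, 12 were called (38.7%), against 51.3% of 10423 genes. The median difference over all genes was 0.40 on the log2 scale, so each value below is to be read against it. With TMM scaling that median was 0.04, and the share of called genes with a positive difference was 53.9% in place of 68.7%. The members' median difference was -0.39, or -0.79 relative to all genes (-0.76 with TMM scaling).

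A negative difference, with CPX the higher effect, was called for 6 members. Gbp2 had the widest, at -3.30 (SE 0.94, adjusted p = 0.0223 by limma). Its Pcbp1 hairpin libraries lay below both controls and its CPX libraries above both. Iigp1 followed at -2.51 (SE 0.83, adjusted p = 0.0377), but it passed the filters only through the scrambled and the CPX libraries, which fixed the sign. For Zbp1 the difference was -2.30 (SE 0.31, adjusted p = 0.00100), for Samhd1 -2.13 (SE 0.41, adjusted p = 0.00426) and for Irf1 -2.04 (SE 0.37, adjusted p = 0.00340). Isg15 was at -1.33 (SE 0.43, adjusted p = 0.0346). The calls of Zbp1, Samhd1 and Irf1 held in all 14 alternatives. Those of Gbp2 and Iigp1 were each lost without scrambled replicate 1 (adjusted p = 0.0652 and 0.107), scrambled replicate 2 (0.0649 and 0.0809), Pcbp1 hairpin replicate 1 (0.0556 and 0.104) and Pcbp1 hairpin replicate 2 (0.0703 and 0.0833). Gbp2 was also lost without DMSO replicate 1 (0.0728) and Iigp1 without DMSO replicate 2 (0.115). The Isg15 call was lost in 6 of 8 fits without 1 library, the exceptions being scrambled replicate 1 and CPX replicate 1 (adjusted p 0.0593 to 0.106 in the 6).

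A positive difference, with CPX the lower effect, was called for Gbp5 at 2.84 (SE 0.57, adjusted p = 0.00541), Ifi47 at 1.79 (SE 0.40, adjusted p = 0.00851) and Parp14 at 1.67 (SE 0.49, adjusted p = 0.0245). It was also called for Ifih1 at 1.40 (SE 0.38, adjusted p = 0.0183), Ifit3 at 1.22 (SE 0.29, adjusted p = 0.0105) and Ifit2 at 1.19 (SE 0.27, adjusted p = 0.00808). For Ifit2 and Ifi47 this is a difference in size between 2 falls. Gbp5 and Ifit2 kept their calls in all 14 alternatives. Parp14 and Ifih1 lost theirs with TMM scaling (adjusted p = 0.0748 and 0.0761), without scrambled replicate 1 (0.0881 and 0.0741) and without Pcbp1 hairpin replicate 2 (0.0781 and 0.0742). Parp14 also lost its call without scrambled replicate 2 (0.0527), Pcbp1 hairpin replicate 1 (0.0676), DMSO replicate 1 (0.0716) or DMSO replicate 2 (0.0538). Ifit3 lost its call without Pcbp1 hairpin replicate 2 (0.0522).

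**Figure D3:**
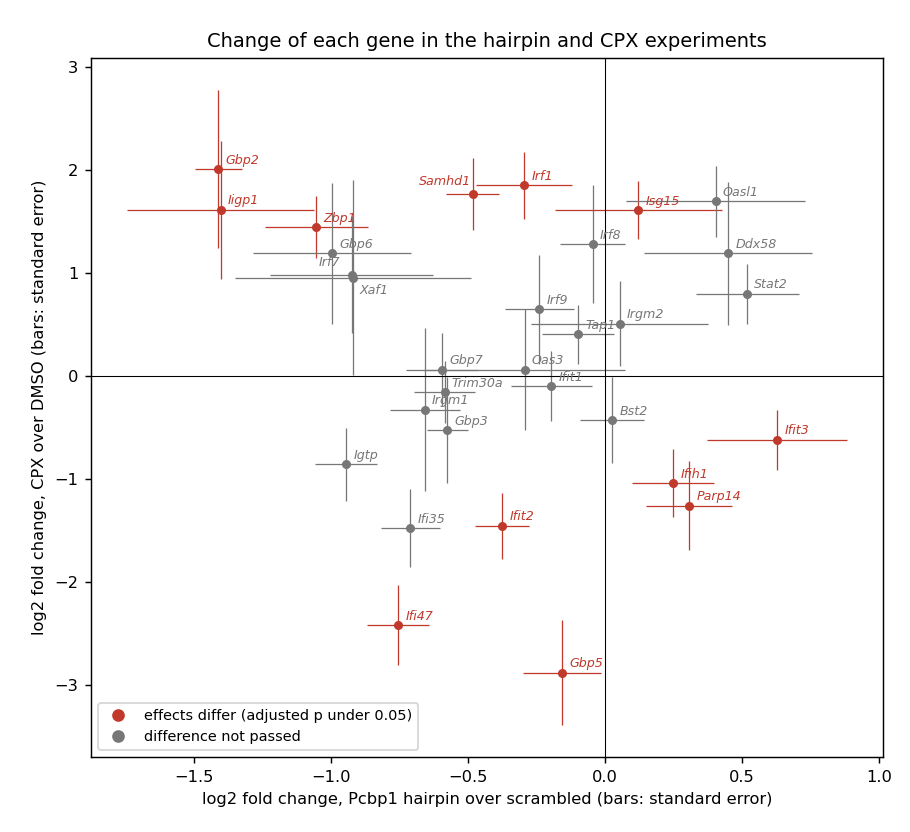
Log2 fold change with the Pcbp1 hairpin (horizontal) against that with CPX (vertical) for the 31 members tested in both experiments, with standard errors as bars. Red points are the 12 members whose effects differed, among them Gbp2 at the upper left and Gbp5 and Ifi47 at the bottom.

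The genes that make, receive and transmit the interferon signal were examined as lists of 95 further genes, also chosen with earlier results known. Of these, 72 were tested in the hairpin experiment and 75 in the CPX experiment. In the hairpin experiment 21 rose (29.2%) and 27 fell (37.5%), against 29.4% and 26.6% of all genes. With CPX 13 rose and 13 fell (17.3% each), against 20.0% and 24.8% of all genes. The counts of the single lists below are small and are to be read against the same shares. Ifng, the cytokine itself, was at 50383 and 40954 RPM with the scrambled hairpin and at 24818 and 18990 RPM with the Pcbp1 hairpin (log2 -1.17, SE 0.17, adjusted p = 8.73e-04 by edgeR's quasi-likelihood test). With DMSO it was at 14026 and 23804 RPM and with CPX at 1106 and 4983 RPM (log2 -2.96, SE 0.71, adjusted p = 0.0214 by limma). Both perturbed groups were below both of their controls. The CPX call for Ifng was lost without DMSO replicate 2 (adjusted p = 0.0546) or CPX replicate 1 (0.151), and its log2 fold change was -4.05 without CPX replicate 2. The Pcbp1 hairpin call was lost with quantile normalization (log2 -0.23, adjusted p = 0.266), with length and GC content taken out (log2 -0.50, adjusted p = 0.109) and in the fit of all 8 libraries (log2 -1.07, adjusted p = 0.264). The difference between the effects on Ifng did not pass (adjusted p = 0.115).

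Of 6 receptor chains and kinases tested in the hairpin experiment 2 rose and 2 fell. Ifngr1, a chain of the interferon gamma receptor, rose (log2 0.90, SE 0.12), as did the kinase Jak1 (0.42, SE 0.06). The kinases Tyk2 (log2 -0.48, SE 0.10) and Jak2 (-0.24, SE 0.08) fell with the hairpin. With CPX, too, Jak1 rose (log2 0.94, SE 0.18) and Jak2 and Tyk2 fell (-1.32 each, SE 0.20 and 0.26). Of 8 sensing adaptors and kinases 5 rose and 0 fell with the Pcbp1 hairpin, led by Traf3 (log2 2.33, SE 0.07) and Myd88 (2.29, SE 0.16), which link sensors and Toll-like receptors to downstream kinases. With CPX 1 rose and 1 fell in that list. The gene that rose, Tlr7, was at 0.661 and 0.665 RPM with DMSO and 1.46 and 2.44 RPM with CPX. It passed the filter only through the CPX libraries, which fixed its direction. Of 6 signal factors 3 rose and 0 fell with the Pcbp1 hairpin, namely Stat3, Irf2 and Irf4, and 1 fell with CPX. That gene, Irf4, rose with the hairpin (log2 0.75, SE 0.09) and fell with CPX (-2.42, SE 0.26). Of 6 inhibitors, 2 rose and 1 fell with the hairpin, and Socs3 alone rose with CPX (log2 1.72, SE 0.31).

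Antigen processing genes, many of them targets of interferon gamma, fell with the Pcbp1 hairpin in 8 of 12 cases and rose in 2. B2m, the light chain of class I molecules, was at 1715 and 1902 RPM in controls and 582 and 674 RPM with the Pcbp1 hairpin (log2 -1.63, SE 0.11, adjusted p = 2.63e-05 by edgeR's quasi-likelihood test). Psme2 fell with the hairpin as well (log2 -0.92, SE 0.06). With CPX 4 of the 12 rose and 3 fell. The largest fall in the list was that of Erap1 (log2 -2.08, SE 0.22, adjusted p = 0.00293 by limma), and Nlrc5 was among those that rose (1.66, SE 0.21). The class I heavy chain H2-D1 fell with the hairpin (log2 -0.86, SE 0.07) and rose with CPX, from 1167 and 1337 RPM to 4313 and 4600 RPM (log2 1.83, SE 0.19, adjusted p = 0.00282 by limma). H2-K1 did the same, at -1.17 (SE 0.08) and 1.17 (SE 0.18). Of 28 further interferon-stimulated genes tested in the hairpin experiment 7 rose and 13 fell, against 29.4% and 26.6% of all genes. Of 30 tested with CPX 5 rose and 4 fell, against 20.0% and 24.8%. The smallest p with the hairpin belonged to genes that rose, the RNA-editing enzyme Adar (log2 1.63, SE 0.10) and Znfx1, a helicase-like RNA sensor (1.13, SE 0.09), followed by Ifitm2, which fell (-0.69, SE 0.08). Gbp8 and Gbp9, guanylate-binding proteins outside the 39, fell with the Pcbp1 hairpin (log2 -1.06, SE 0.23 and -0.82, SE 0.26). Both rose with CPX (log2 2.09, SE 0.36 and 2.03, SE 0.31), where Gbp5 fell. Tor3a, an ATPase, fell with the hairpin (-0.66, SE 0.23) and rose with CPX (2.54, SE 0.34). Of the 2 genes tested in the ISG15 conjugation list Uba7 fell with the hairpin, and of the 3 tested with CPX Herc6 rose. Of the 2 chemokines and ligands tested in each experiment, Cxcl10 fell with the hairpin and neither passed with CPX.

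The replicates of the DMSO and CPX groups differed from each other in these genes more than in most. Among members with at least 10 reads in both libraries, 9 of 35 differed by more than 2-fold between the DMSO replicates (25.7%, against 7.02% of all genes) and 14 of 36 between the CPX replicates (38.9%, against 20.0%). In the scrambled and Pcbp1 hairpin groups 0 of 32 members did in either group, against 1.2% and 1.32% of all genes. Many members deviated alike in same-numbered replicates of the CPX experiment. Over all genes tested, deviations of same-numbered libraries correlated at only 0.10 in the CPX experiment, against 0.29 in the hairpin experiment. Of 35 members measured in both groups, 16 were higher in replicate 1 in both, 8 were higher in replicate 2 in both and 11 were opposite. Irf7, Oasl2 and Iigp1 were more than 2-fold higher in replicate 1 of both groups, and Gbp2 was more than 2-fold higher in replicate 2 of both. Xaf1, a proapoptotic protein, was at 4.27 and 2.15 RPM in the DMSO replicates and 18.2 and 2.03 RPM in the CPX replicates. Across the 35 members the log2 ratios of replicate 2 to replicate 1 correlated at 0.68 between DMSO and CPX, and across 31 members at 0.15 between the hairpin groups (Pearson, members within a library are not independent). The origin of the replicates, and its part in this pattern, was not tested.

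**Figure D4:**
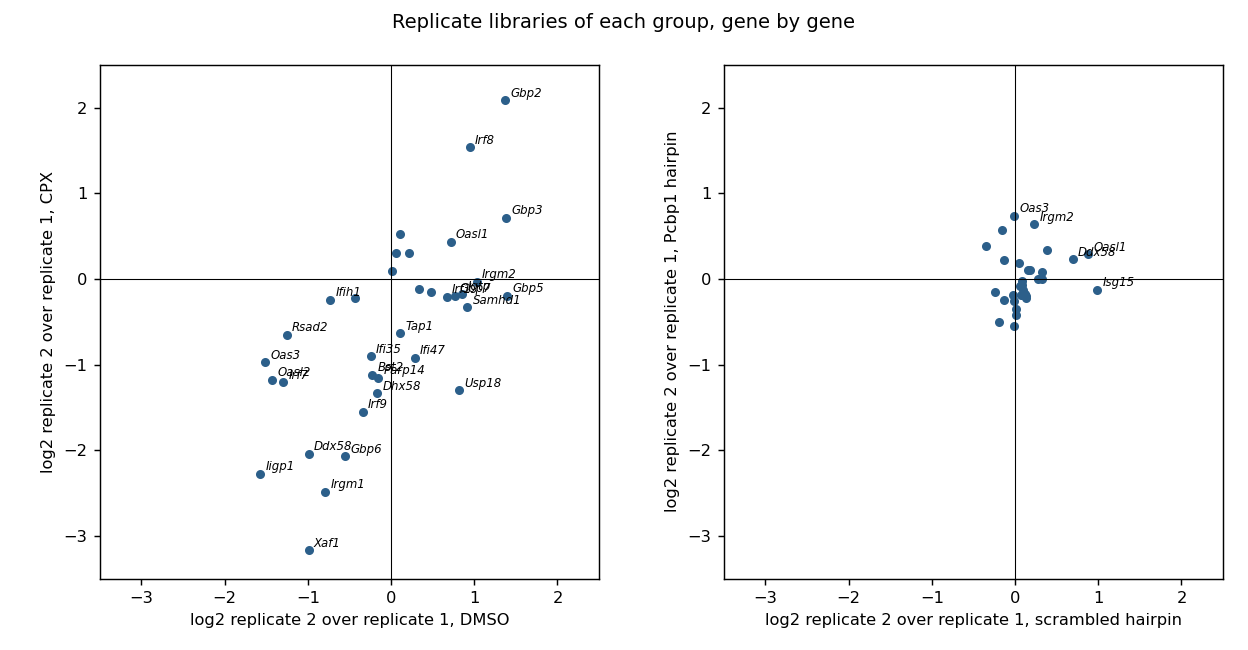
Log2 ratio of replicate 2 to replicate 1 for each member with at least 10 reads in all 4 libraries of an experiment, CPX against DMSO (left, 35 members) and Pcbp1 hairpin against scrambled (right, 31 members). The left panel spreads from Xaf1 at -3.17 to Gbp2 at 2.09 on the CPX axis, while the right panel stays within 1 of zero.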

How the data were processed

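The 39 members and the pathway lists were chosen with earlier results of these data known. RNA sequencing reads were handled by the authors with cutadapt, STAR, HTSeq and DESeq on build mm9, per the submitters' processing notes, without versions. The deposited per-gene values are raw counts for the hairpin libraries. For the CPX experiment they behave as a score, counts rescaled by 1 factor common to its libraries and rounded, although the design assumed RPM. The authors' deposited tables give a mean signal, log2 fold changes, p-values and a Wald score, per the file headers. Labels after 1 constant line were displaced by 1 gene. They were set right by matching each line to the mean signal of the deposited tables, which moved 13281 of 33863 genes and 23 members and left out 35 lines.

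RPM was computed from each library's total. The filter was 1 RPM in 2 or more of 4 libraries. The hairpin experiment was fitted in edgeR 4.0.16 by its quasi-likelihood test after TMM scaling, and CPX and the difference with limma 3.58.1 (trend, pseudocount 0.5) in R 4.3.3, with Benjamini-Hochberg adjustment at 0.05. The SE for edgeR was worked back from its F statistic. Whole reads were recovered for 99.98% of lines of the CPX experiment within a relative tolerance of 2e-09, and edgeR on them called 4985 genes. DESeq2 1.42.0 was an alternative. The scripts were tested on simulated data. Values per library were given for members called in the hairpin, CPX or difference comparison and for Ifng (1 further gene of the rule is not reported here). Those of other genes were added after values were seen. The rule was to name at most 3 genes with the smallest p per list and comparison. Named beyond it, after values were seen, were Gbp8, Gbp9, Tor3a, H2-D1 and Jak2 with the hairpin and H2-K1 with CPX. Samples were grouped by the labels, and no pairing of replicates was assumed.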

Additional observations from a re-analysis of the deposited data

Results flagged for a closer look

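The effect of the Pcbp1 hairpin and that of CPX on the same gene differed by limma's test of the contrast for 12 of the 31 members tested in both experiments. These differences cannot be told apart from ones of RNA selection or experiment. On the log2 scale, knockdown minus CPX, the difference was -3.30 for Gbp2, -2.51 for Iigp1, -2.30 for Zbp1, -2.13 for Samhd1, -2.04 for Irf1 and -1.33 for Isg15. The sign for Iigp1 was fixed, since that gene passed the filters only through the scrambled and the CPX libraries. The difference was 2.84 for Gbp5, 1.79 for Ifi47, 1.67 for Parp14, 1.40 for Ifih1, 1.22 for Ifit3 and 1.19 for Ifit2. The median difference over all 10423 genes tested was 0.40, and 51.3% of them were called. Groups of 2 libraries are too small to look for a single library that stands apart.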

How the results depend on the processing

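Of 1428 values of single genes under alternatives 1173 kept their direction and their side of the threshold, 107 lost a call, 70 gained one and 0 calls reversed. In 78, for 29 results without a call, the sign changed and no call was made. The settings with edgeR or DESeq2 on recovered reads and those with length and GC content taken out were chosen after seeing the data. In the hairpin experiment, the limma fit of all 8 libraries called 2758 genes and 0 members as risen and 1 as fallen. The count of risen members was 0 with DESeq2, median ratio scaling, the filter of 5 RPM and quantile normalization, and 2 with limma, with or without length and GC content taken out. Leaving out 1 library, 5496 to 5762 genes were called, 0 to 1 members rose and 12 to 14 fell. With CPX, 10 members rose and 8 fell in the fit of all 8 libraries, and 12 rose with DESeq2 on recovered reads. The count that fell was 3 without a filter on low values and 3 with quantile normalization. Without 1 library 2096 to 5781 genes were called, 1 to 10 members rose and 2 to 5 fell. The lowest counts of genes were 2096 without DMSO replicate 1 and 2343 without DMSO replicate 2. For the difference, 3906 to 6848 genes and 6 to 18 members were called without 1 library, the fewest members without Pcbp1 hairpin replicate 2 and the most without CPX replicate 2. The cause of these changes was not tested.

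The groups of an experiment share replicate numbers, but the labels do not say what a number marks. Over all genes tested, deviations of same-numbered libraries correlated at 0.29 in the hairpin and 0.10 in the CPX experiment. With a replicate block 7333 genes were called in the hairpin experiment, 2 members rose (Stat2 and Ifih1, adjusted p = 0.00184 for the latter) and 14 fell. With CPX 5673 genes were called, 12 members rose and 6 fell, and 7 members gained a call by limma, Gbp2 (adjusted p = 2.09e-04), Irf8 (0.00496), Iigp1 (0.00573), Parp14 (0.0235), Oasl2 (0.0255), Ddx58 (0.0387) and Gbp6 (0.0486). For the difference 16 members were called with the block, Irf7, Irf8, Oasl1 and Gbp6 in addition, and Ifng passed (adjusted p = 0.0199). Scarce members limit the depth of what can be seen, since 7 members in the hairpin and 4 in the CPX experiment stayed under 1 RPM in 3 or more libraries.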
